A study of Drosophila subpalustris with 2 samples.

Results

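Block 7 is the last block of gene models in the deposited count tables of Drosophila subpalustris, a fly of the quinaria group. It holds 1462 of 17716 gene models. Its members were chosen by their place in the tables and not by their counts: a new block was started each time the number in the locus tag fell, which gave 7 blocks, and every model of the last one was taken. The study sequenced polyadenylated RNA of whole adult flies in 2 libraries, replicate 1 and replicate 2, each made from 1 µg of RNA of a separate pool of 10 to 20 males and females. The pools carry no treatment or mutation in the labels and form 1 group, the labels leave out the sex ratio and age of each pool, and no comparison between conditions exists.

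A gene model is a prediction of where exons lie in an assembly. BRAKER, the annotation program used for this genome, trains a gene finder on aligned RNA and can also draw on proteins of other species, so it can draw a model at a locus that has no RNA in the animals sampled. Many insect genes are transcribed in embryos, larvae or a few cells of the adult, and RNA of such genes is diluted in a whole-body sample. The count table used here gives a read to a model where it aligns to 1 place in the assembly and overlaps the exons of 1 model. Locus tags carry no gene names in these tables, and positions, lengths and sequences of the models were not analysed here, so members are named by tag and described by place in the tables. Levels are in CPM, counts per 1000000 sense counts of the library, and are not corrected for model length.

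Very little RNA was assigned to block 7. Its models had 9379 of 26141490 sense counts in replicate 1 and 7037 of 25544996 in replicate 2. This was 0.0317% ± 0.0059 of the sense counts (SD, n = 2), for 1462 models. At least 10 sense counts in each library, called detected from here on, were reached by 48 models of block 7 (3.28%), against 12246 of 16254 models in blocks 1 to 6 (75.3%) and 69.4% of all models. In blocks 1 to 6 taken one at a time, the share lay between 69.5% and 82.5%. No sense count in either library was found for 900 models of block 7 (61.6%), against 1415 in blocks 1 to 6 (8.71%) and 13.1% of all models. For a model with no count, up to 3 remain possible, so its level can be as high as 0.115 CPM (replicate 1) or 0.117 CPM (replicate 2), and these models are not shown to lack RNA. This limit and the intervals given here cover counting error only.

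**Figure D1:**
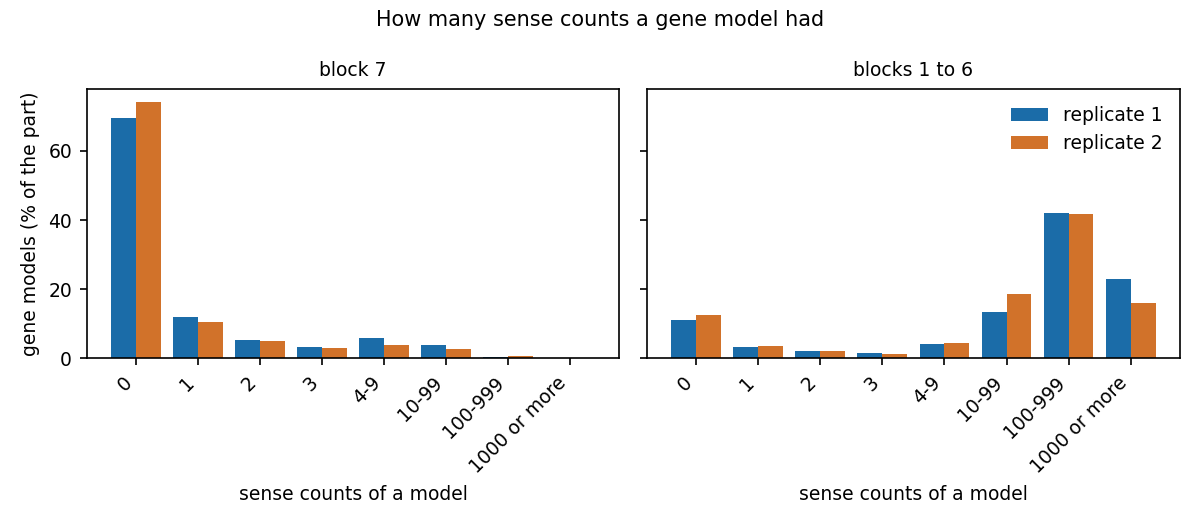
Percent of gene models by the number of sense counts of a model, for block 7 on the left and blocks 1 to 6 on the right, with 1 bar per library. In block 7 the bar at 0 counts stands at 69.6% in replicate 1 and 74.2% in replicate 2; in blocks 1 to 6 the class of 100 to 999 counts is the tallest, at 42.1% and 41.7%.

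The remaining models of block 7 fell into groups by their counts. Beside the 48 detected models, 20 reached 10 counts in 1 library, and 494 had at least 1 sense count but fewer than 10 in each. In replicate 1, 173 models had exactly 1 count, 76 had 2 and 47 had 3. In replicate 2 these numbers were 155, 71 and 43. At most 3 counts in each library were found for 1290 models (88.2%), against 2650 in blocks 1 to 6 (16.3%). The undetected models averaged 0.847 sense counts in replicate 1 and 0.561 in replicate 2, whereas undetected models of blocks 1 to 6 averaged 5.11 and 2.37. Of the undetected models, 63.6% had no sense count at all in block 7 and 35.3% in blocks 1 to 6. Counting both strands, 741 models of block 7 (50.7%) had no count in either library, and 159 more had antisense counts alone.

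Reads that align to several places are given to no model in these tables. In replicate 1 they were 2.00% of the input and in replicate 2 3.12%. Whether models of block 7 lost reads in this way was not tested.

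The counts that block 7 did have were held by few models. The 10 models of highest mean CPM held 72.8% ± 0.7 of its sense counts (SD, n = 2). Of these 10, 3 stand side by side in the tables: ACLKA7_001854, ACLKA7_001855 and ACLKA7_001856, at places 547, 548 and 549 of the block. ACLKA7_001854 had 1455 sense counts in replicate 1 and 1051 in replicate 2, a mean of 48.4 ± 10.3 CPM. ACLKA7_001855 had 808 and 743 counts, a mean of 30.0 ± 1.3 CPM. ACLKA7_001856 had 1218 and 1466 counts, a mean of 52.0 ± 7.6 CPM, the highest in the block (SD, n = 2 each). Together they held 37.1% of the sense counts of block 7 in replicate 1 and 46.3% in replicate 2. The edges of this run were sharp, since ACLKA7_001853 before it had 0 and 1 sense counts and ACLKA7_001857 after it had 1 and 0. The order of the 3 models differed between the libraries, with ACLKA7_001854 highest in replicate 1 and ACLKA7_001856 highest in replicate 2.

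The other models among the 10 stood apart from each other in the block. ACLKA7_000907 had 2249 sense counts in replicate 1 and 318 in replicate 2, which is 86.0 and 12.4 CPM. It held 24.0% of the counts of block 7 in replicate 1 and 4.52% in replicate 2. Without it, block 7 took 0.0273% of the sense counts in replicate 1 and 0.0263% in replicate 2, against 0.0359% and 0.0275% with it, so most of the difference between the libraries in the share of block 7 was in this model. ACLKA7_000916, 9 places further on, went the other way, with 95 counts in replicate 1 and 418 in replicate 2. ACLKA7_000105 had 214 and 384 counts. ACLKA7_005242 had 291 and 236 counts, and ACLKA7_017656 had 250 and 264. The last of the 10 were ACLKA7_001979, with 215 and 80 counts, and ACLKA7_005602, with 77 and 123. ACLKA7_001856 ranked 2451 by mean CPM among all models of the annotation, and ACLKA7_005602 ranked 10277.

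**Figure D2:**
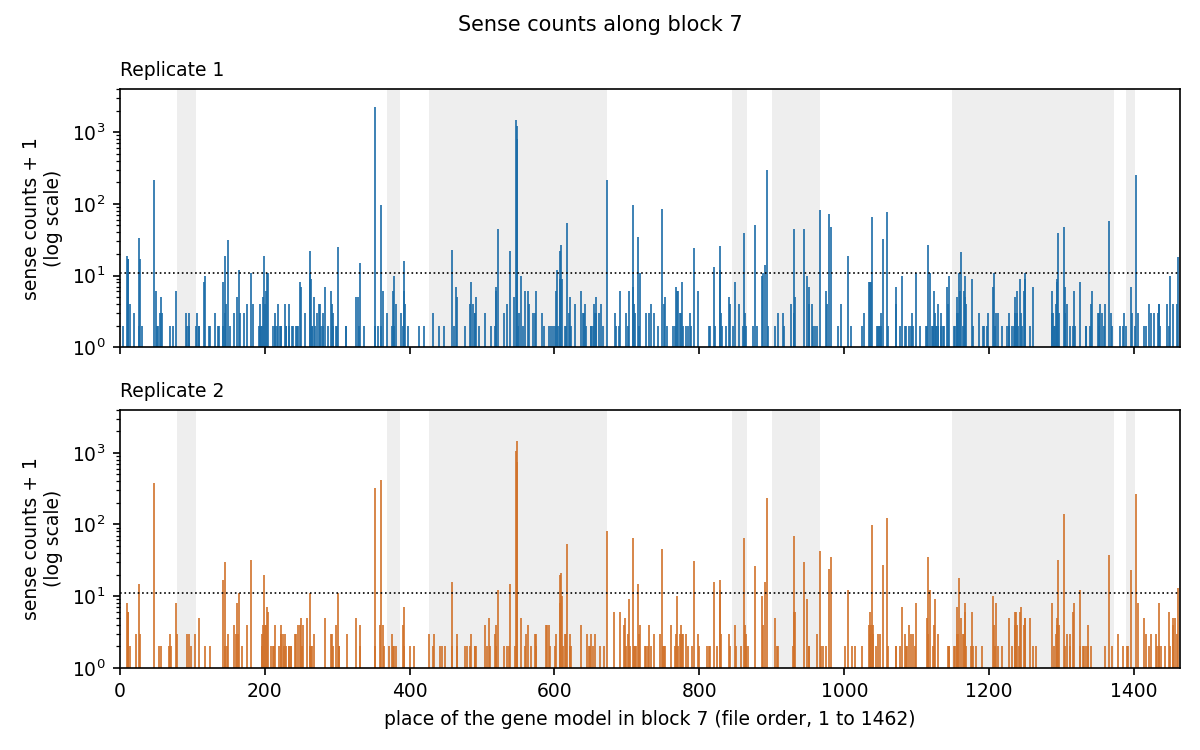
Sense counts plus 1 on a log scale for each of the 1462 models of block 7 in file order, replicate 1 above and replicate 2 below. Grey and white bands are the 15 stretches of consecutive tags and the dotted line marks 10 counts; the 3 tallest neighbouring lines, at places 547 to 549, are ACLKA7_001854 to ACLKA7_001856, and most other models stand below the dotted line.

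The other 38 detected models were low. They had between 10 and 96 sense counts in replicate 1 and between 10 and 138 in replicate 2. The median of the mean CPM was 1.25 over the 48 detected models of block 7, against 16.5 over the 12246 detected models of blocks 1 to 6. A mean of at least 1 CPM was found for 28 of the 48 (58.3%), against 96.9% of the detected models of blocks 1 to 6. The threshold of 10 counts cut through closely spaced values. Just inside it were ACLKA7_000719, with 11 and 10 sense counts, and ACLKA7_005661, with 10 and 11. Just outside were ACLKA7_005236, with 9 counts in each library, and ACLKA7_001918, with 8 and 9.

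The tags of block 7 are not consecutive. They run from ACLKA7_000058 to ACLKA7_017716 and form 15 stretches of consecutive numbers, of 13 to 263 models. The numbers missing between the stretches belong to models of blocks 1 to 6, and every number up to 17716 is used once. File order thus gathers at its end models whose tags are spread through the numbering. What a block or a stretch corresponds to in the assembly was not analysed here.

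Low detection was found in all 15 stretches. The detected share was at most 8.57% in any stretch, reached by the 35 models of ACLKA7_005215 to ACLKA7_005249, of which 3 were detected. In 5 stretches, with 114 models in sum, no model was detected. The share of models with no sense count lay between 52.4% and 75.0%. The counts themselves were uneven. The stretch of 245 models from ACLKA7_001735 to ACLKA7_001979 held 43.3% of the sense counts of block 7 in replicate 1 and 50.8% in replicate 2, with 10 detected models, the 3 neighbours described above among them. The stretch of 263 models from ACLKA7_000661 to ACLKA7_000923 held 28.8% and 14.1%, with 8 detected models, ACLKA7_000907 and ACLKA7_000916 among them. The first detected model of the block was ACLKA7_000084 at place 27, with 32 and 14 counts, and the last was ACLKA7_017715 at place 1461, with 17 and 12.

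Detected models of block 7 mostly stood alone. Of the 48, 7 had a detected model at the next or previous place (14.6%): the run of 3, and the pairs ACLKA7_001915 with ACLKA7_001916 and ACLKA7_005015 with ACLKA7_005016. In blocks 1 to 6 this share was 95.4%. These shares depend on how many models of a block are detected, and no test was made of the difference. With replicate 1 alone, 16 of 65 models with at least 10 counts had such a neighbour, and with replicate 2 alone 7 of 51. The longest run of models without a sense count was 20, from ACLKA7_007714 to ACLKA7_007733, and the longest run without a detected model was 136, from ACLKA7_007607 to ACLKA7_007742.

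The strand of the RNA was then examined. The library kit marks strand, so a read can be assigned to the annotated strand of a model (sense) or to the opposite one (antisense). Antisense counts in block 7 numbered 1257 in replicate 1 and 953 in replicate 2. Their part of the strand-specific counts of block 7 was 11.8% in replicate 1, with a 95% exact (Clopper-Pearson) range of 11.2% to 12.4%. In replicate 2 it was 11.9%, with a range of 11.2% to 12.7%. The mean was 11.87% ± 0.08 in block 7, against 0.83% ± 0.01 in blocks 1 to 6 (SD, n = 2 each). The 10 most abundant models were nearly free of antisense counts: 5 of them had none, and the largest numbers were 9 in replicate 1, in ACLKA7_001854, and 15 in replicate 2, in ACLKA7_001856. Without these 10, the antisense share of block 7 was 33.1% in replicate 1 and 31.9% in replicate 2. The 10 were chosen by their sense level, which by itself favours a low antisense share in them and a higher one in the rest.

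The antisense share changed with how many counts a model had, in block 7 and elsewhere. Models were grouped by their sense and antisense counts summed over both libraries, which does not use the strand. Among models with 1 to 3 such counts, the antisense share was 37.7% and 46.8% in the 412 models of block 7, against 38.5% and 36.7% in 1028 models of blocks 1 to 6, for replicates 1 and 2 in each case. At 4 to 9 counts it was 35.7% and 46.0% in 163 models of block 7, against 32.7% and 32.3% in 742 models elsewhere. At 10 to 19 counts it was 26.5% and 30.7% in 69 models of block 7, against 25.3% and 25.6% in 541 models elsewhere. At 20 to 49 counts it was 28.0% and 24.9% in 41 models of block 7, against 21.7% and 21.2% in 781 models elsewhere. Block 7 was thus above the other blocks in these classes except at 1 to 3 counts in replicate 1, by amounts that varied. At 50 to 99 counts the gap was wider, with 37.2% and 36.4% in 14 models of block 7 against 12.8% and 13.9% in 709 models elsewhere. At 100 to 999 counts the shares were 15.2% and 8.28% in 18 models of block 7 against 3.59% and 3.91%. At 1000 or more counts they were 0.244% and 0.969% in 4 models of block 7, against 0.605% and 0.682% in 5646 models elsewhere. There block 7 was lower in replicate 1 and higher in replicate 2. From 50 counts up, each class holds fewer than 20 models in block 7, so a few models set the value.

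**Figure D3:**
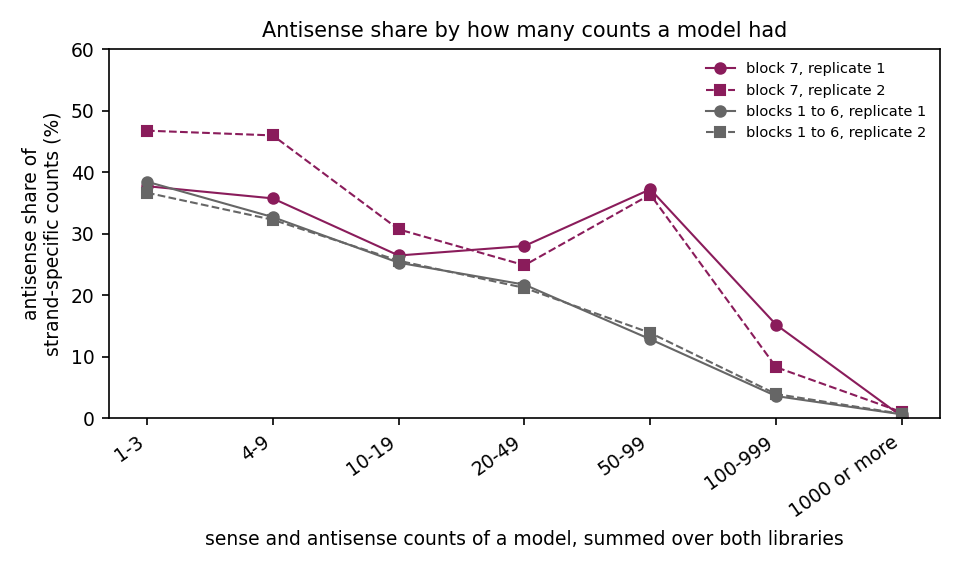
Antisense share of strand-specific counts, in percent, by the sum of sense and antisense counts of a model over both libraries, for block 7 in purple and blocks 1 to 6 in grey; circles are replicate 1 and squares replicate 2. The lines lie between 36.7% and 46.8% at 1 to 3 counts, and the gap between block 7 and the other blocks is widest at 50 to 99 counts.

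A few models carried antisense counts above their sense counts. With at least 10 antisense counts in each library as a further condition, 6 models of block 7 met this rule (0.410%). In blocks 1 to 6, 240 models met it (1.48%), and 1.39% of all models did. These shares also depend on how many models have enough antisense counts to qualify. At least 10 antisense counts in each library were found for 11 models of block 7, of which 6 met the rule. In blocks 1 to 6 they were found for 1889, of which 240 met it. These 6 held 410 of the antisense counts of block 7 in replicate 1 (32.6%) and 192 in replicate 2 (20.1%). With 1 library alone, 14 models met the rule in replicate 1 and 10 in replicate 2. Without the 6, the antisense share was 8.31% and 9.78% in block 7. Leaving out the 240 in the same way gave 0.489% and 0.421% in blocks 1 to 6. Of the 6, 4 were among the 14 models with 50 to 99 counts and 2 among the 18 with 100 to 999. Without them the antisense shares of these classes were 11.5% and 16.1%, and 5.41% and 4.30%, in block 7. Without the models that met the rule, these shares were 6.91% and 6.96%, and 2.61% and 2.86%, in blocks 1 to 6.

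Of the 6, 3 lay in the same stretch of 66 models, from ACLKA7_005442 to ACLKA7_005507. ACLKA7_005472 had 139 antisense and 2 sense counts in replicate 1, and 28 and 5 in replicate 2. Its neighbour ACLKA7_005473 had 71 antisense and 4 sense counts in replicate 1, and 70 and 5 in replicate 2. ACLKA7_005493 had 37 and 27 antisense counts in replicates 1 and 2, with 3 and 1 sense counts. These 3 models held 247 of the 254 antisense counts of the stretch in replicate 1 and 125 of 131 in replicate 2. The model before this pair, ACLKA7_005471, was detected in the sense direction, with 44 and 68 sense counts and no antisense count. In replicate 1, ACLKA7_005471 and ACLKA7_005472 each had 1 count missing from the column that ignores strand. This occurs when a read also overlaps a model on the opposite strand. In replicate 2 neither had a missing count, and ACLKA7_005473 had none in either library. The strand of each model was not given, and whether the other counts of these neighbours lie on the same strand of the assembly was not tested.

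The other models of this kind lay in the stretch that begins with ACLKA7_000661. ACLKA7_000817 had 71 antisense and 10 sense counts in replicate 1, and 11 and 1 in replicate 2. ACLKA7_000819 had 53 antisense and 8 sense counts in replicate 1, and 31 and 1 in replicate 2. Between them stood ACLKA7_000818, detected with 21 and 10 sense counts. It had 10 and 5 of its counts missing from the column that ignores strand, as occurs when a read also overlaps a model on the opposite strand. In ACLKA7_000819, 7 and 5 counts were missing in this way, so its counts and those of ACLKA7_000818 are uncertain in part. ACLKA7_000756, with 39 and 25 antisense counts and 3 sense counts in each library, had no missing count. Such missing counts were found in 39 models of block 7 (2.67%), against 2542 in blocks 1 to 6 (15.6%). They can be seen only in models with counts. No count on either strand was found for 50.7% of block 7 models, against 5.87% in blocks 1 to 6.

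**Figure D4:**
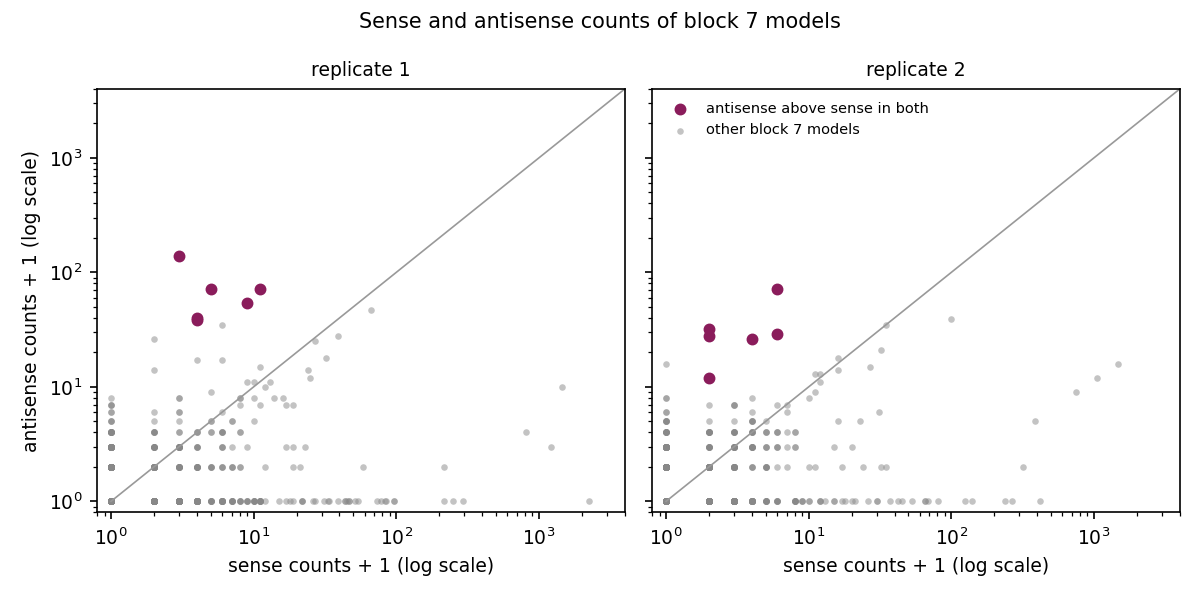
Antisense counts plus 1 against sense counts plus 1 of each block 7 model, both on log scales, replicate 1 on the left and replicate 2 on the right; the line marks equal counts. The 6 purple points, with antisense above sense and at least 10 in both libraries, reach 139 antisense counts in ACLKA7_005472, and the models with most sense counts lie along the bottom.

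Counts on both strands were also found within detected models. Of the 48, 22 had no antisense count (45.8%), against 14.8% of the detected models of blocks 1 to 6, which have more counts in which one could appear. An antisense share of 20% or more in both libraries was found in 9 of the 48 (18.8%), against 276 of 12246 elsewhere (2.25%). These shares are not matched by count. Detected models elsewhere had more counts, and the antisense share of blocks 1 to 6 fell as counts rose. ACLKA7_005659 had 26 sense and 24 antisense counts in replicate 1, and 34 of each in replicate 2. ACLKA7_007743 had 38 sense and 27 antisense counts in replicate 1, and 31 and 20 in replicate 2. ACLKA7_005581 had 65 sense and 46 antisense counts in replicate 1, and 98 and 38 in replicate 2. These 3 models were chosen for the text after their values were seen. The other 17 detected models lay between, with some antisense counts but a share under 20% in at least 1 library.

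The libraries were then set against each other. Across the 68 models of block 7 with at least 10 sense counts in 1 library, the Pearson r of log2(CPM + 1) was 0.901 and the Spearman rho 0.780, against 0.908 and 0.888 over 12957 models of the whole annotation. The 1 CPM added before the logarithm is close to the median of 1.25 CPM of the detected models of block 7, so it draws low values together. With 0.1 CPM added instead, the Pearson r of block 7 was 0.868. Models share their library and its depth and are not independent replicates. Of these 68 models, 17 reached 10 counts in replicate 1 alone and 3 in replicate 2 alone. In blocks 1 to 6 these numbers were 498 and 145, of 12889 models with at least 10 counts in 1 library. Models of block 7 had lower counts, nearer the threshold, so the parts are not matched by count. Among the models in 1 library alone, ACLKA7_000705 had 30 and 2 counts and ACLKA7_012117 had 6 and 22, both chosen for the text after their values were seen. Of the 173 models of block 7 with 1 count in replicate 1, 108 had none in replicate 2 (62.4%), near the 304 of 516 in blocks 1 to 6 (58.9%).

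**Figure D5:**
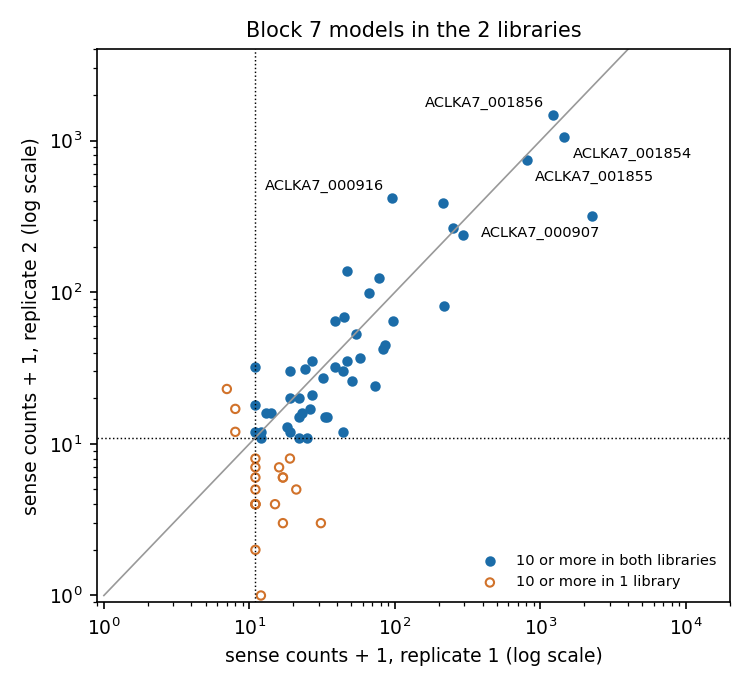
Sense counts plus 1 in replicate 2 against replicate 1, both on log scales, for the 68 block 7 models with at least 10 counts in 1 library; filled points reach 10 in both (48) and open points in 1 (20), dotted lines mark the threshold and the solid line equal counts. ACLKA7_000907 lies below the line with 2249 and 318 counts, and ACLKA7_000916 above it with 95 and 418.

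Ratios of replicate 2 to replicate 1 were taken after scaling by the trimmed mean of M-values (TMM). This scaling raises every log2 ratio by 0.54 over library totals. The median absolute log2 ratio of the detected models was 0.64 in block 7, against 0.71 over all 12294 detected models. The median log2 ratio was 0.30 in block 7 against 0.03 over all detected models, and with library totals it was -0.24 against -0.51. With TMM, at least 2-fold differences were found in 13 of the 48 (27.1%), against 33.6% of all detected models. Of the 48, 10 were higher in replicate 2 (20.8%), against 15.4% of all detected models, and 3 were higher in replicate 1 (6.25%), against 18.2%. With library totals the split in block 7 was 3 higher in replicate 2 (6.25%) and 8 in replicate 1 (16.7%). Over all detected models it was 605 (4.92%) and 4045 (32.9%).

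A two-sided exact binomial test on the counts of each model, with Benjamini-Hochberg adjustment over the 13241 models of the annotation that had at least 10 counts in sum, asked whether a model differed between the libraries beyond sampling noise. It compares these libraries and says nothing of a condition. Of 101 models of block 7 tested, 27 differed at an adjusted p below 0.05 (26.7%), against 77.0% of all models tested. Models of block 7 had few counts, and the share rose with the count. At 10 to 19 counts in sum it was 6.67% of 45 models of block 7 against 23.3% elsewhere, and at 100 to 999 counts 71.4% of 14 models against 75.9%. With TMM, 19 of the 27 were higher in replicate 2 and 8 in replicate 1. Over the whole annotation 10190 models differed, 5154 higher in replicate 2 and 5036 in replicate 1 (38.9% and 38.0% of all models tested). With library totals, 34 models of block 7 differed (33.7%), against 79.3% of all models tested, and 19 of them were among the 27. Of these 34, 10 were higher in replicate 2 and 24 in replicate 1. Over the whole annotation 10499 models differed with library totals. Of these, 2809 were higher in replicate 2 and 7690 in replicate 1 (21.2% and 58.1% of all models tested). The split thus depends on the scaling.

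The models that moved furthest kept their direction under both scalings, but their choice fixed this beforehand. Library totals lower every log2 ratio by 0.54, less than the size of each ratio given here. ACLKA7_000907 had a log2 ratio of -2.24 (95% counting interval -2.42 to -2.07) and an adjusted exact binomial p of 4.25e-210. ACLKA7_001829, with 43 and 11 counts, had a log2 ratio of -1.39 (-2.49 to -0.41) and an adjusted exact binomial p of 0.00459. Towards replicate 2, ACLKA7_000916 had a log2 ratio of 2.72 (2.39 to 3.05) and an adjusted exact binomial p of 3.26e-81. ACLKA7_000736, with 10 and 31 counts, had a log2 ratio of 2.21 (1.14 to 3.40) and an adjusted exact binomial p of 1.2e-05. They were chosen for their ratios among the detected models, and each ratio rests on 1 library over 1 other.

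The 3 neighbours of the run differed less. Their log2 ratios were 0.11 for ACLKA7_001854 (-0.01 to 0.22), 0.46 for ACLKA7_001855 (0.31 to 0.60) and 0.85 for ACLKA7_001856 (0.73 to 0.96). The intervals, which cover counting error only, do not overlap. The 3 ratios thus differed from each other beyond counting error in these libraries, whatever the scaling. Spread among further libraries was not measured. With library totals the ratios of ACLKA7_001854 and ACLKA7_001855 turned negative, at -0.44 and -0.088, while that of ACLKA7_001856 was 0.30.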

How the data were processed

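For each library the authors deposited raw counts per gene model in 3 columns, for either strand, one strand and the opposite strand. Reads were handled with fastp and STAR 2.7.11b, per the submitters' processing notes, and the models were annotated with BRAKER 3.0.6 with these reads as evidence, per the submitters' design text, so a model with counts is no independent test of the annotation. Not given in the sources used here: settings and genome build.

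The first 4 rows (read totals) stayed out of library sizes; sense counts took 61.7% and 58.8% of all reads in replicates 1 and 2. The last column was taken as sense because it held the larger sum. Scaling used TMM from edgeR 4.0.16 or size factors from DESeq2 1.42.0 (R 4.3.3); with 1 group, no quasi-likelihood test could be fitted. Other steps used Python 3.11.15, scipy 1.17.1 and pandas 2.3.3. The exact binomial procedure was tested on simulated counts with sampling noise only, as the test assumes, and known changes in some models. Further spread between libraries was not simulated, so the simulation does not show how the procedure behaves under it.

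The members were chosen with earlier results of these data known. Named models are the 10 of highest mean CPM, the 2 largest ratios each way, the longest run of detected models, models with antisense above sense, the first and last detected, and those nearest the threshold, plus some named as chosen after seeing values. The submitters call the libraries biological replicates; p-values measure the sampling of reads in these libraries and no spread among further ones. Alternatives were other count minimums, columns, scalings and single libraries.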

Additional observations from a re-analysis of the deposited data

How the results depend on the processing

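Of 51 alternatives for the summary results, 31 left the value within the replicate SD, a 95% interval or 1.5 times the count. Detected models of block 7 numbered 260 at a minimum of 1 count, 74 at 5, 28 at 20, 13 at 50 and 23 at 1 CPM, and 51 to 65 with 1 library alone. Models without a sense count numbered 1017 to 1085 with 1 library. The share of sense counts was 0.0192% of all input reads and 0.00862% without the 10 most abundant models, and 0.0275% to 0.0359% by library. The 10 most abundant models held 64.8% in the column that ignores strand, and 72.2% to 73.3% by library. The sense share was 93.2% over models with at least 10 counts on either strand in each library, 67.5% without the 10 most abundant and 91.0% without the 6 models of antisense excess (chosen after seeing the data), and 88.1% to 88.2% by library. Models with antisense above sense numbered 10 at a minimum of 5, and 10 to 14 with 1 library. Detected models with a detected neighbour numbered 13 within 5 places, 13 at a minimum of 5 counts and 3 at 20, and 7 to 16 with 1 library. At a minimum of 50 counts in sum, 17 of 28 models of block 7 tested differed between libraries (60.7%), against 81.9% of all models tested. Without strand, 45 of 145 differed (31.0%), against 75.2%. Library totals turned the log2 ratio to -0.10 in ACLKA7_000719, -0.44 in ACLKA7_001854, -0.088 in ACLKA7_001855, -0.27 in ACLKA7_005242 and -0.47 in ACLKA7_017715, as they lower every ratio by 0.54. No paired analysis was possible because the libraries form 1 group. Depth leaves the levels of the 1414 undetected models unresolved.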
